A study of Rattus norvegicus with 28 samples.

Results

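Expression of 9 genes used as signs of macrophage polarization or of scavenging was followed across the series, namely Arg1, Nos2, Mrc1, Cd163, Msr1, Marco, Cd86, Cd36 and Chi3l1. They were chosen by gene name in the array annotation, and all 9 were found, as 11 of 41012 probes and as 9 of 35469 gene-name features. Macrophages are phagocytic immune cells that enter the injured spinal cord from the blood and join the resident microglia in clearing debris. Their states are often placed between a classical pole, marked by inducible nitric oxide synthase (Nos2) and the co-stimulatory protein Cd86, and an alternative pole, marked by arginase 1 (Arg1), the mannose receptor (Mrc1) and the haemoglobin scavenger receptor Cd163. Scavenger receptors such as Msr1, Marco and Cd36 take up modified lipoproteins, dead cells and, in the cord, myelin debris.

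The tissue was 1.5 cm of spinal cord around the lesion, from adult female Sprague Dawley rats, measured on 28 single-dye arrays in 7 groups of 4 biological replicates. T0 cords came from animals with no contusion, called sham in the labels and uninjured in the study. T1, T2, T4 and T8 cords were taken 1, 2, 4 and 8 weeks after a severe spinal cord injury (SCI), a thoracic contusion of 250 kdyn. T1_NPC rats received neural progenitor cells (NPC) directly after the contusion and were taken at 1 week, whereas T2_NPC rats received them 1 week after it and were taken at 2 weeks. The NPC were grown as neurospheres from the cords of other adult rats with SCI. Per the study's methods, care after surgery in all animals included the immunosuppressant tacrolimus (FK-506), timed from the day before transplantation, and no starting day is given for rats without NPC. The methods also state that injured controls received an equal volume of medium without cells, and do not name the groups. The labelled stretch of thoracic cord began lower in T2_NPC than in the other groups.

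Values are log2 intensities after quantile normalization between arrays, and a log2 difference of 1 is a doubling. On each array, between 74.5% and 82.7% of the spots were well above background, and no spot of a rat probe was saturated. The scanner output deposited for 16 of the 28 samples matched the value table of a different sample. The value table, whose columns carry sample names, was used throughout. When the scanner outputs were instead read under their deposited samples, limma called none of the 9 genes against T0 in any injured or transplanted group. The T1_NPC arrays were all on 1 slide and the T2_NPC arrays on another, both from a scan session that held no other array, so transplantation cannot be told apart from slide and session. The T1_NPC replicate 2 array stood apart, with the lowest mean correlation with its own group (0.971, against 0.979 or more for every other array). Its summed level of 10 microglia and macrophage markers was 100514, against 193597 to 212502 on the other T1_NPC arrays. That of 5 fibroblast markers was 29276 against 102420 to 206886, and that of 5 neuron markers was 44935 against 17941 to 26191. Results that rest on this array are given with and without it.

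The probes that carried the results are shown first, since a value describes only the stretch of transcript that its probe binds. Each is a 60-base sequence from the array annotation, placed on the rat genome build rn4. The Msr1 probe lies at chr16:56293586-56293645, in 1 uninterrupted stretch. The Cd36 probe (chr4:13518295-13519542) and the Nos2 probe (chr10:65070211-65072250) join exons across introns of 1188 and 1980 bases, and each was printed in 10 spots. The first Mrc1 probe (chr17:88489156-88491763) also joins exons, as do both Cd163 probes (chr4:160407221-160407922 and chr4:160406765-160406920) and the Marco probe (Un:9449917-9450079, a sequence not placed on a chromosome). Capitals in the Marco probe mark 7 GGN triplets, codons for glycine spaced every 9 bases as in the collagen-like domain of this receptor. In all, 3 of the 41012 probes hold as many, this one included.
Msr1: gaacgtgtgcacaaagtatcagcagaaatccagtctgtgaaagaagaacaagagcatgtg
Cd36: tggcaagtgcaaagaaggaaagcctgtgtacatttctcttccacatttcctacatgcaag
Mrc1, A_43_P18738: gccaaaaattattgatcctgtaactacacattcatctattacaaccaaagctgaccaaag
Cd163, A_43_P17457: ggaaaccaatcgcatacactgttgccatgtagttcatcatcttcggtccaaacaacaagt
Cd163, A_43_P18105: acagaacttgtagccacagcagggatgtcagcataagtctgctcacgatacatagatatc
Nos2: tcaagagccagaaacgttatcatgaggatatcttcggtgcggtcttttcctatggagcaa
Marco: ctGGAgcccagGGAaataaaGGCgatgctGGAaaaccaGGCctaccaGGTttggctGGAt

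The second Mrc1 probe (A_44_P635138) lies at chr17:88492403-88492462 and the Arg1 probe at chr1:21011150-21011209. The Chi3l1 probe lies at chr13:47146100-47146159, and the annotation lists the Cd86 probe on chromosome 11 from 66228957 down to 66228898. Where a gene had more than 1 probe, their log2 values were averaged.

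Injury was followed by higher levels of 4 scavenger and mannose receptors and of Cd86, by a rise and later fall of Arg1, and by a late rise of Chi3l1. At T1, 6 of the 9 genes were higher than in T0 and none was lower, where limma called 44.1% of all features in either direction and 19.1% as higher. At T2, 4 were higher and 1 was lower, where 40% of all features were called, 17.7% as higher and 22.2% as lower. At T4, 6 were higher and 1 was lower (38.5% of all features called, 17.5% as higher and 21% as lower). At T8, 6 were higher and none was lower (39.7% called, 18.2% as higher). The median log2 change over the 9 genes was 3.42, 1.59, 2.60 and 2.47 at 1, 2, 4 and 8 weeks as measured. It was 2.35, 0.47, 1.47 and 1.35 with Mrc1, Cd163 and Msr1, whose probes were partly or wholly at background in T0, set to lower bounds, while the median over all features was -0.10, -0.05, -0.06 and -0.04. Cd36, Nos2 and Marco also had T0 spots that were not well above background. The 4 comparisons against T0 share the T0 arrays. Since the tissue was measured in bulk, fewer cells of a type and less RNA per cell cannot be told apart, and the same holds for more. Summed over 10 microglia and macrophage markers, the level was 31297 to 38511 in uninjured cord. It reached 191644 to 223368 after 1 week and 179541 to 196388 after 2 weeks, and lay at 130467 to 157352 after 4 weeks and at 131995 to 151254 after 8 weeks. The part of this rise in the changes of the 9 genes was not tested. Neuron, oligodendrocyte and astrocyte markers were well above background on every T0 array, which fits the labelled tissue.

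**Figure D1:**
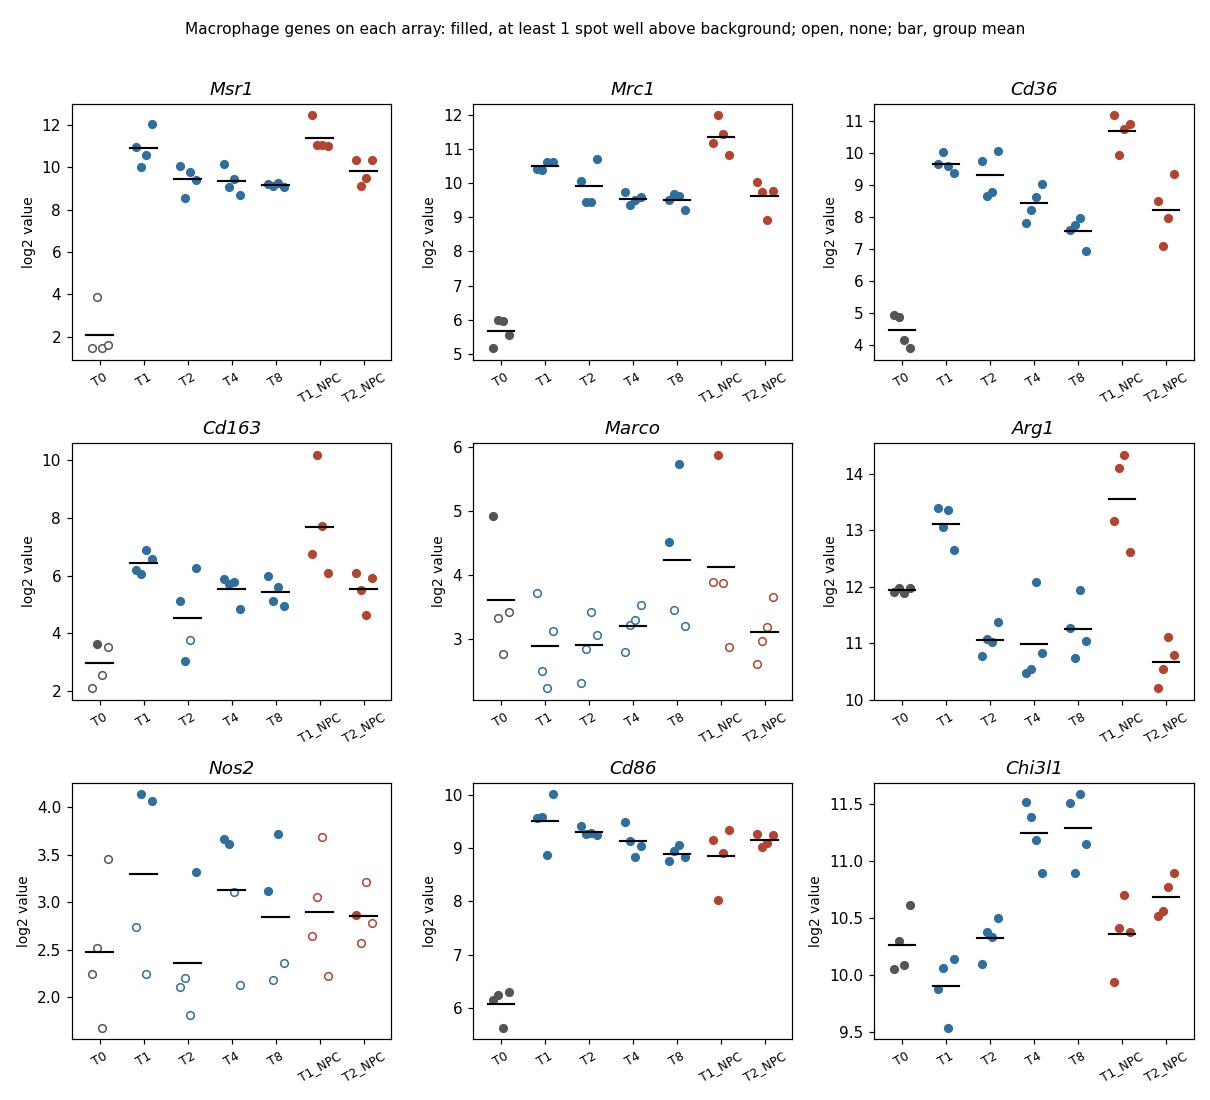
Log2 value of each of the 9 genes on each of the 28 arrays, by group. Points are arrays, filled where at least 1 spot was well above background, and bars are means of 4 arrays. Msr1, Mrc1, Cd36 and Cd86 of every injured array lie above every T0 array, and Marco and Nos2 are mostly open points.

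Msr1, the class A scavenger receptor of macrophages, changed most. Its log2 value was 1.49, 3.88, 1.45 and 1.61 on the T0 arrays, none of them well above background. It was 10.96, 10.04, 10.59 and 12.07 at T1, and 10.06, 8.54, 9.80 and 9.43 at T2. Every injured array was thus far above every T0 array. The T4 values were 10.17, 9.06, 9.47 and 8.69, and the T8 values 9.21, 9.11, 9.25 and 9.06, the most even of all groups. Because Msr1 in T0 was at background, its change is given as a lower bound, taken against the lowest signal well above background on each T0 array (mean log2 4.03) or the probe's own where higher. Such bounds, here and below, compare group means and make no allowance for sampling error. The adjusted p-values beside them belong to the measured changes. Against T0, Msr1 was at least 119-fold higher after 1 week (measured means 10.92 and 2.11, limma adjusted p = 1.59e-12). The bound was at least 43.2-fold higher after 2 weeks (measured mean 9.46, adjusted p = 5.57e-11), at least 40.0-fold after 4 weeks (9.35, adjusted p = 8.66e-11) and at least 35.1-fold after 8 weeks (9.16, adjusted p = 1.31e-10).

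Cd36, a receptor for oxidized lipids and fatty acids, rose and then receded over the weeks. It measured 4.93, 4.89, 4.16 and 3.90 in T0 and 9.66, 10.04, 9.61 and 9.36 at T1. The T2 values were 9.74, 8.65, 8.77 and 10.08, those at T4 7.83, 8.23, 8.62 and 9.03, and those at T8 7.60, 7.76, 7.98 and 6.94. Of its 40 T0 spots, 25 were well above background. No injured array overlapped with T0, and the T8 arrays all lay below the T1 arrays. The log2 change against T0 was 5.20 at the first week (36.7-fold, SE 0.40, limma adjusted p = 3.73e-10). It was 4.84 (28.7-fold, adjusted p = 1.69e-09), 3.95 (15.5-fold, adjusted p = 5.72e-08) and 3.10 (8.57-fold, adjusted p = 1.5e-06) in T2, T4 and T8. With T0 at the floor where the probe was at background, as for Msr1, the 4 bounds were 35.5-fold, 27.8-fold, 15.0-fold and 8.30-fold. From T1 to T8, Cd36 fell by 2.10 on the log2 scale (4.28-fold, limma adjusted p = 0.00105). The steps between neighbouring times gave log2 differences of -0.35, -0.89 and -0.86, none of which passed the test. The 10 Cd36 spots of an injured group differed by an SD of only 0.03 to 0.10 within an array, against an SD between replicates of 0.28 to 0.71.

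Mrc1, the mannose receptor CD206, showed a similar course with a smaller decline. Its values were 5.16, 6.0, 5.96 and 5.55 in T0, 10.41, 10.37, 10.61 and 10.62 at T1, and 10.06, 9.45, 9.45 and 10.699 at T2. At T4 they were 9.74, 9.37, 9.50 and 9.59, and at T8 9.50, 9.68, 9.61 and 9.20. All injured arrays lay above T0, and all T8 arrays below T1. The first probe was well above background on 1 of the 4 T0 arrays and the second on all of them. The second probe rose by 4.50, 4.01, 3.63 and 3.59 on the log2 scale over the 4 times. With the first probe set to the floor of each other T0 array, as for Msr1, its change was at least 4.63, 3.95, 3.60 and 3.53, which gives the same order of times. The mean of both was at least 23.7-fold higher in T1 (measured log2 4.84, SE 0.27, limma adjusted p = 1.06e-12). In T2, T4 and T8 it was at least 15.8-fold, 12.2-fold and 11.8-fold higher (highest adjusted p = 1.07e-10). The decline from T1 to T8 was 1.01 on the log2 scale (2.01-fold lower at T8, limma adjusted p = 0.0159), and it missed the threshold when T8 replicate 4 was left out.

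Cd163, which takes up haemoglobin bound to haptoglobin, rose from a level close to background and varied most at T2 within the time course. It measured 2.10, 3.64, 2.55 and 3.51 in T0 and 6.18, 6.04, 6.88 and 6.59 at T1. At T2 the arrays spread over 5.11, 3.04, 3.75 and 6.26, overlapping with T0. The values at T4 (5.89, 5.69, 5.76 and 4.84) and T8 (5.99, 5.13, 5.61 and 4.96) were again all above T0. Of 8 T0 spots, only 1 was well above background, so folds are given as lower bounds with the other spots at the floor. Cd163 was at least 5.10-fold higher in T1 (measured log2 change 3.47, SE 0.67, limma adjusted p = 0.000157). It was at least 2.78-fold higher in T4 (2.60, adjusted p = 0.00318) and 2.55-fold in T8 (2.47, adjusted p = 0.00437), while the measured T2 change of 1.59 did not pass (adjusted p = 0.0621). For probe A_43_P18105 alone the bounds at T4 and T8 were 1.86-fold and 1.61-fold, and for A_43_P17457 4.14-fold and 4.04-fold. After normexp background correction, the T4 and T8 changes were no longer called. Within T2, the arrays of scan session 1 averaged 3.39 and those of session 2 averaged 5.68. Against the T0 arrays of the same session, the T2 difference was 1.07 in session 1 (adjusted p = 0.0599) and 2.11 in session 2 (adjusted p = 0.00168). With the session as a block it was 1.59 and passed (adjusted p = 0.0271). Mrc1 (9.45 and 10.38) and Cd36 (8.71 and 9.91) were also higher in session 2 than in session 1 within T2. Of the Cd163 probes, A_43_P17457 gave 2.02 at T2 (adjusted p = 0.0187) and A_43_P18105 gave 1.16 (adjusted p = 0.195). With T0 at the floor, the T2 bound was 1.38-fold for the mean of both probes and 2.38-fold for A_43_P17457. For A_43_P18105 the T2 mean lay below T0 at the floor (log2 -0.32).

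Marco, a class A receptor that binds bacteria and particles on some tissue macrophages, was mostly at background. Only 4 of 28 arrays were well above it, namely 1 of T0, 2 of T8 and 1 of T1_NPC. The values ran from 2.76 to 4.92 in T0, from 2.23 to 3.71 in T1 and from 3.20 to 5.74 in T8, and all groups overlapped. No comparison of Marco passed the test across all arrays. Both T8 arrays well above background belonged to session 2, and within that session T8 was above T0 by 1.76 (limma adjusted p = 0.0123) and above T1 by 2.51 (adjusted p = 0.00723). Within session 1 these differences were -0.51 and -0.38, and neither passed. Under 75th percentile scaling, T8 (1.89, adjusted p = 0.0383) and T1_NPC (1.78, adjusted p = 0.0343) were also above T1. No T1 array was well above background.

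**Figure D2:**
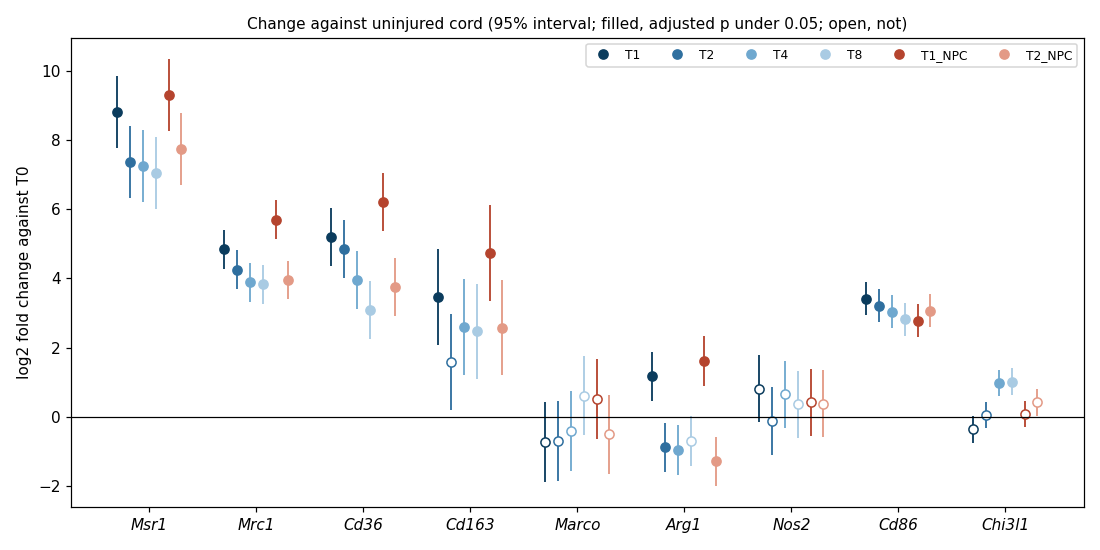
Log2 fold change of the 9 genes against T0 in the 4 injured and the 2 transplanted groups. Points are limma estimates with 95% intervals, filled where the adjusted p was under 0.05. Estimates of Msr1, Cd163, Mrc1 and Cd36 are measured values against a T0 wholly or partly at background, so their size is known only as a lower bound. Arg1 lies above 0 at 1 week and below it later, and Chi3l1 leaves 0 at T4.

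Arg1 and Nos2 encode enzymes that compete for arginine. The course of Arg1 was unlike that of Msr1, Mrc1, Cd36 and Cd163, whereas Nos2, like Marco, was close to background. Arg1, which splits arginine into ornithine and urea and is known in other cells than macrophages too, was already bright in uninjured cord, with values of 11.91, 11.98, 11.88 and 11.97. At T1 it measured 13.39, 13.05, 13.36 and 12.65, all above T0. At T2 it measured 10.77, 11.08, 11.03 and 11.37, all below T0. The rise at T1 was 2.26-fold (log2 1.18, SE 0.35, limma adjusted p = 0.00737), and the drop from T1 to T2 was 4.15-fold (log2 -2.05, adjusted p = 0.00243). At T2 the level was 1.84-fold below T0 (log2 -0.88, adjusted p = 0.046). This call was lost in 14 of 28 fits that left out 1 array, with a highest adjusted p of 0.114.

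Arg1 stayed low later. The values were 10.47, 10.55, 12.09 and 10.82 at T4 and 11.28, 10.74, 11.94 and 11.04 at T8, so that replicate 3 of both groups reached the T0 level and the others lay below it. The T4 difference from T0 was -0.96 (1.94-fold, limma adjusted p = 0.0312), lost in 7 of the fits without 1 array, and the T8 difference of -0.69 did not pass (adjusted p = 0.123), though it passed without T8 replicate 3 (-0.92, adjusted p = 0.0492). Between T1 and T8, Arg1 fell by 1.86 on the log2 scale (3.64-fold, limma adjusted p = 0.000693). Within scan session 1 the differences from T0 were 1.49, -0.85, -1.08 and -1.0 at T1, T2, T4 and T8, and within session 2 they were 1.04, -0.91, -0.94 and -0.37. The order of group means was T1_NPC (13.55), T1 (13.11), T0 (11.94), T8 (11.25), T2 (11.06), T4 (10.98) and T2_NPC (10.66). The arrays of T1 and T1_NPC overlapped in this order, as did those of T8, T2, T4 and T2_NPC. T0 was separated from all arrays of T1, T1_NPC, T2 and T2_NPC.

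Nos2, the inducible nitric oxide synthase, was close to background in every group. Of 40 spots per group, none was well above background in T0 or T1_NPC and 1 was in T2_NPC. The counts in T1, T2, T4 and T8 were 15, 3, 9 and 9. All 36 such spots of the injured time course lay on session 2 arrays (of 100 spots) and none on session 1 arrays (of 60). Its values were 2.24, 2.51, 1.68 and 3.46 in T0 and 2.73, 4.14, 2.24 and 4.06 at T1, which overlap. The T1 difference of 0.82 did not pass (SE 0.47, limma adjusted p = 0.169), and it was 0.77 within session 1 and 0.49 within session 2. With the slide as a block it was 0.75 and passed (adjusted p = 0.0422). The Nos2 spots of an array differed by an SD of 0.39 to 1.01.

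Cd86, which binds CD28 on T cells when antigen is presented, rose and stayed up. It measured 6.16, 6.24, 5.63 and 6.30 in T0, 9.56, 9.57, 8.86 and 10.00 at T1, and 9.41, 9.26, 9.29 and 9.24 at T2. The values were 9.49, 9.13, 8.84 and 9.04 at T4 and 8.76, 8.94, 9.05 and 8.83 at T8. All injured arrays were above all T0 arrays. The log2 increase was 3.42 in T1 (SE 0.23, limma adjusted p = 2.74e-11). Cd86 was 9.29-fold, 8.24-fold and 7.04-fold higher in T2, T4 and T8 (highest adjusted p = 1.23e-09). The T8 difference from T1, -0.60 (SE 0.23), did not pass (adjusted p = 0.109), though it passed without T1 replicate 3 (adjusted p = 0.0207) or without T1_NPC replicate 2 (adjusted p = 0.0314).

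Chi3l1, a secreted chitinase-like lectin made by macrophages and by reactive astrocytes, followed a course of its own. It measured 10.06, 10.30, 10.08 and 10.61 in T0, 9.88, 10.06, 9.54 and 10.14 at T1 and 10.09, 10.37, 10.33 and 10.50 at T2, which overlap. At T4 it measured 11.52, 11.38, 11.18 and 10.89, and at T8 11.51, 10.90, 11.58 and 11.15, all above every T0, T1 and T2 array. The rise over T0 was 1.97-fold at T4 (log2 0.98, SE 0.18, limma adjusted p = 0.000157) and 2.03-fold at T8 (log2 1.02, adjusted p = 8.51e-05), and T8 was 2.61-fold above T1 (log2 1.38, adjusted p = 1.57e-05). The T1 difference of -0.36 did not pass (adjusted p = 0.122). It passed as lower with the slide as a fixed block (-0.39, limma adjusted p = 0.0452) and with the session as a block (-0.43, adjusted p = 0.0384), and did not pass within session 1 (-0.19) or session 2 (-0.54). The astrocyte filament gene Gfap, measured alongside, was higher by 0.86, 1.26, 1.82 and 1.75 at T1, T2, T4 and T8. Of 6 astrocyte markers, Gfap was the only 1 called higher, and 3, 1, 0 and 1 were lower. The part of Gfap in the Chi3l1 course was not tested.

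Between neighbouring times few members moved. From T1 to T2, 1 of 9 was lower (Arg1) and none higher, where 1.48% of all features were called and 0.665% were lower. From T2 to T4, limma called none of the 9 (0.0761% of all features), although 2 had an unadjusted p under 0.05, Cd36 and Chi3l1. Chi3l1 was higher on all T4 than on all T2 arrays, with a log2 difference of 0.92 and an adjusted p of 0.0526. From T4 to T8, limma called none (0.0902% of all features), and only Cd36 had an unadjusted p under 0.05. Over the whole span from T1 to T8, Chi3l1 was higher and Arg1, Mrc1, Msr1 and Cd36 were lower, that is 5 of 9 where 9.87% of all features were called (5.45% higher and 4.42% lower). The Msr1 decline of 1.76 on the log2 scale (3.38-fold, limma adjusted p = 0.0248) was lost without T1 replicate 1, T1 replicate 4, T8 replicate 2 or T8 replicate 4. Over the same span the summed microglia and macrophage markers went from between 191644 and 223368 to between 131995 and 151254. Taken singly, 1 of these 10 markers was called lower and 9 were not called, with a median log2 change of -0.63. The part of these markers in the declines was not tested.

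Other genes of these pathways were counted in lists. For comparison, 19.1%, 17.7%, 17.5% and 18.2% of all features were called higher at T1, T2, T4 and T8, and 25.1%, 22.2%, 21% and 21.5% lower. Of 15 other scavenger receptor genes, 10 were found by symbol, and 9, 9, 9 and 8 of them were higher at T1, T2, T4 and T8, with 1 lower, Stab2 at T2. The median log2 changes were 2.16, 2.37, 2.24 and 2.24. Cd68, a lysosomal glycoprotein of macrophages, rose by 7.05, 6.81, 6.57 and 6.45 on the log2 scale, and the lipopolysaccharide co-receptor Cd14 rose by 4.02, 3.41, 3.29 and 3.38. Scara3, a scavenger receptor induced by oxidative stress, rose by 2.49, 2.48, 3.48 and 3.87. Scarb1, Olr1, Colec12, Scara5 and Lrp1 were also higher at all 4 times. Of these 10, Cd68 is also on the macrophage marker list.

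Of 14 measured genes linked to alternative activation, 7, 9, 9 and 10 were higher and 1, 1, 0 and 1 lower, with median log2 changes of 1.49, 1.45, 1.41 and 1.59. The lower gene at T1, T2 and T8 was Retnla, a resistin-like gene well above background on only 1 T0 array. The growth factor Igf1 rose by 3.31, 2.69, 2.70 and 2.49, Tgfb1 by 3.12, 2.77, 2.51 and 2.39, and Stat6, which relays interleukin 4 signals, by 3.09, 2.54, 2.64 and 2.68. Trem2, a microglial lipid receptor, rose by 3.26, 2.82, 2.60 and 2.61, and Il10ra, Il13ra1 and Tgm2 were also higher at all 4 times. Il10, Irf4 and Ccl22 were called at none, and Il10 was well above background on none of these arrays. Of 16 genes linked to classical activation, 10, 9, 7 and 8 were higher and 1 was lower at each time, with median changes of 1.22, 0.98, 0.82 and 0.77. The medians were 1.2, 1.38, 1.01 and 1.06 with the genes below background on every T0 array at their lower bound, or left out where the injured group was below it too. Treated likewise, the medians of the alternative activation genes were 1.92, 1.74, 1.48 and 1.81. The chemokine gene Cxcl10 rose by 2.69, 3.73, 3.91 and 3.61, Cd40 by 2.51, 2.31, 2.19 and 2.10, and Il1b by 1.32, 1.66, 0.83 and 1.05. Ifngr1, Irf1, Irf5 and Socs3 were also higher at all 4 times, and Il12a was lower by 1.61, 1.71, 1.59 and 1.66. Il12b, Il23a and Ifng were called at none.

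Of the 14 genes of arginine metabolism, 3 were higher at each time (21.4%, near the share of all features) and 4, 5, 6 and 5 were lower (28.6% to 42.9%), with medians of -0.01, -0.10, -0.03 and 0.07. Arg2, the mitochondrial arginase, was lower by 1.44, 1.46, 1.33 and 1.12, and the arginine transporter Slc7a1 and the creatine enzyme Gatm were lower at all 4 times. Agmat rose by 3.39, 3.49, 3.28 and 3.59, the transporter Slc7a2 by 0.85, 1.02, 1.46 and 1.47, and Odc1, which turns ornithine into putrescine, by 0.28, 0.30, 0.68 and 0.82. Asl, Otc, Nos3, Oat and Ddah2 were called at none. Of 6 chitinase-like and CD28 family genes, 2, 2, 1 and 1 were higher, and Chit1 was lower at T1. Icoslg was higher at all 4 times, by 1.05, 1.64, 1.37 and 1.39, and Chia, Ctla4 and Cd28 at none.

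**Figure D3:**
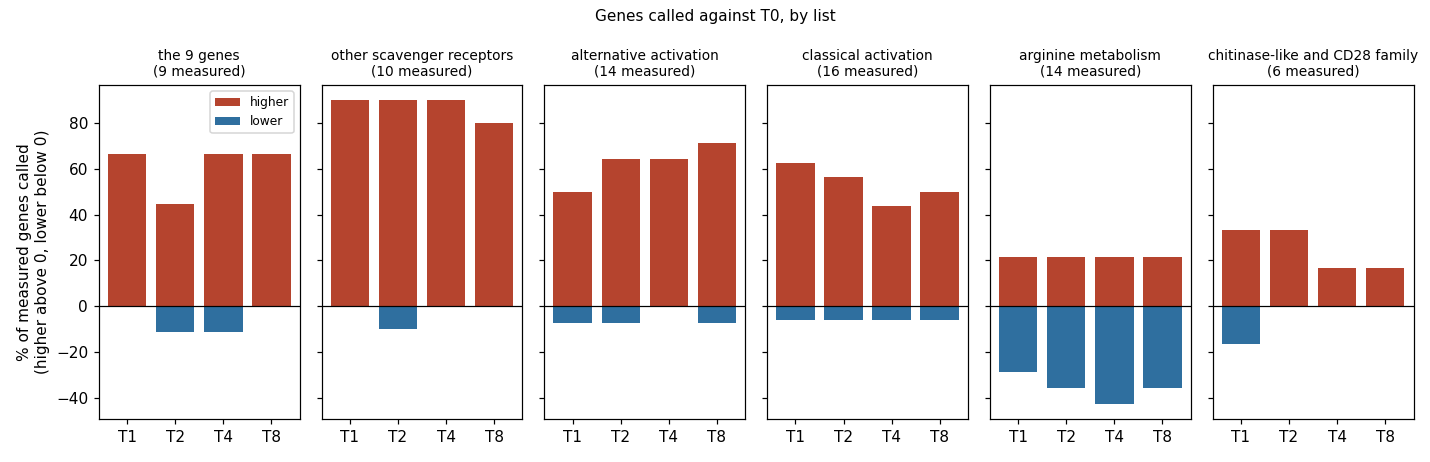
Percentage of measured genes called against T0 at each time, higher above 0 and lower below 0, for the 9 genes and 5 lists of related genes. Other scavenger receptors were higher in 8 or 9 of 10, and arginine metabolism genes were called in both directions.

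Transplantation of NPC was compared with injured cord of the same age. In T1_NPC against T1, 1 of the 9 genes was higher (Mrc1) and none lower, where 11.9% of all features were called and 5.45% were higher. Mrc1 measured 11.19, 11.98, 11.45 and 10.82 in T1_NPC, all above the T1 arrays, which is 1.81-fold higher (log2 0.86, 95% interval 0.30 to 1.41, limma adjusted p = 0.0396). Without T1_NPC replicate 2 the difference was 0.65 and did not pass (adjusted p = 0.152). It also missed the threshold without T1_NPC replicate 3 and without any single T1 array.

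The remaining genes did not pass in T1_NPC. Cd163 measured 6.75, 10.19, 7.73 and 6.08, and the highest value was that of replicate 2. Its difference from T1 was 1.26 with this array (limma adjusted p = 0.231) and 0.43 without it (adjusted p = 0.721). The same array held the highest Marco value (5.88, against 3.89, 3.87 and 2.87), the lowest Cd86 value (8.03, against 9.15, 8.91 and 9.35) and the lowest Cd36 value (9.93, against 11.17, 10.74 and 10.91). Cd86 was lower than T1 by 0.64 on the log2 scale (limma adjusted p = 0.0697), and by 0.36 without replicate 2 (adjusted p = 0.284). Cd36 was 1.02 above T1 (95% interval 0.19 to 1.86, limma adjusted p = 0.102), and 1.28 without replicate 2 (adjusted p = 0.0644). Msr1 measured 12.46, 11.07, 11.05 and 11.01, a difference of 0.48 from T1 (adjusted p = 0.583) that was 0.13 without replicate 1 (adjusted p = 0.912). Arg1 measured 13.17, 14.09, 14.33 and 12.61, a difference of 0.44 (adjusted p = 0.445) that was 0.26 without replicate 2 and 0.18 without replicate 3.

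In T2_NPC against T2, limma called none of the 9 genes, where 9.47% of all features were called, and only Cd36 had an unadjusted p under 0.05. Cd36 measured 8.50, 7.09, 7.97 and 9.33 in T2_NPC, which overlaps with T2, and the difference was -1.09 (2.13-fold lower, 95% interval -1.92 to -0.25, limma adjusted p = 0.0919). It passed without T2_NPC replicate 4, at -1.46. Mrc1 measured 10.02, 9.75, 8.91 and 9.78, a difference of -0.30 (adjusted p = 0.542), and Msr1 10.36, 9.14, 9.52 and 10.34, a difference of 0.38 (adjusted p = 0.703). Chi3l1 measured 10.51, 10.56, 10.77 and 10.90, all above T2, with a difference of 0.36 that did not pass (adjusted p = 0.236).

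The difference between both transplantation effects was tested directly. Limma called none of the 9 genes (0.299% of all features), and 2 had an unadjusted p under 0.05, Cd36 and Mrc1. The Cd36 effect of T2_NPC was below that of T1_NPC by 2.11 on the log2 scale (95% interval -3.29 to -0.93, adjusted p = 0.118), and that of Mrc1 by 1.16 (adjusted p = 0.22). Without T1_NPC replicate 2, the Cd36 difference was -2.36 (limma adjusted p = 0.0946) and the Mrc1 difference -0.95 (adjusted p = 0.339).

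**Figure D4:**
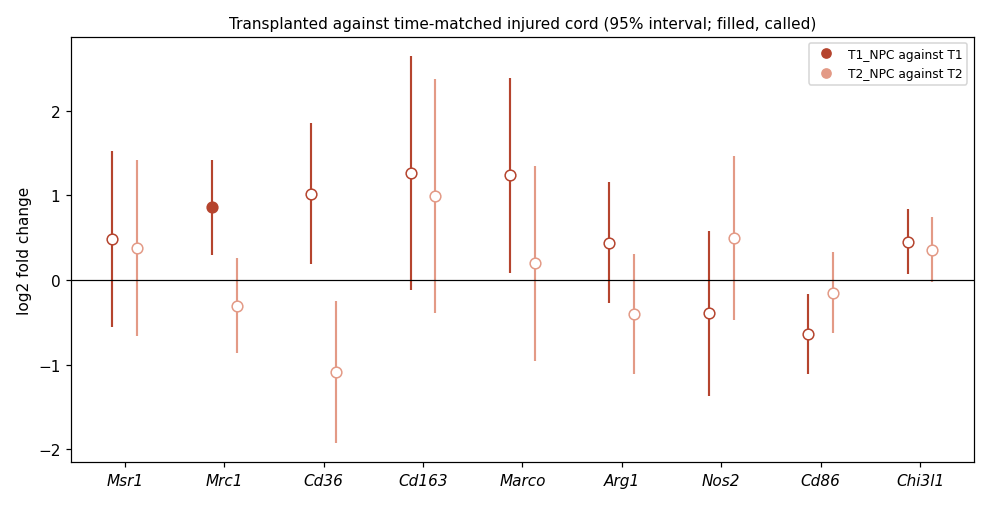
Log2 fold change of the 9 genes in transplanted against injured cord of the same age. Points are limma estimates with 95% intervals, filled where called. Mrc1 in T1_NPC is the only filled point, and the Cd36 estimates lie on opposite sides of 0.

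Against T0, the transplanted groups showed the injury pattern. In T1_NPC, 6 genes were higher and none lower (52.7% of all features called, 22.8% as higher), and in T2_NPC 5 were higher and 1 lower (47.7% called, 21.2% as higher and 26.5% as lower). Msr1 in T1_NPC was at least 166-fold above T0 (measured means 11.40 and 2.11, limma adjusted p = 6.16e-13) and at least 56.3-fold in T2_NPC (adjusted p = 2.35e-11). Cd36 was 74.4-fold and 13.5-fold higher, Mrc1 at least 42.9-fold and 12.8-fold, and Cd86 6.85-fold and 8.39-fold. With T0 at the floor, the Cd36 bounds were 72.1-fold and 13.1-fold. Without T1_NPC replicate 2, the T1_NPC bounds were 179-fold for Msr1, 85.9-fold for Cd36 and 37.1-fold for Mrc1. The Cd86 log2 change in T1_NPC was then 3.05 instead of 2.78, against 3.07 in T2_NPC. Cd163 was at least 12.3-fold higher in T1_NPC (at least 6.88-fold without replicate 2) and at least 2.75-fold higher in T2_NPC. Arg1 was 3.06-fold higher in T1_NPC (limma adjusted p = 0.000398) and 2.43-fold lower in T2_NPC (10.20, 10.53, 11.11 and 10.79, all below T0, adjusted p = 0.00364). Without T1_NPC replicate 2, the Arg1 change in T1_NPC was 1.43 instead of 1.61 on the log2 scale (limma adjusted p = 0.00222).

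To describe which features ran alongside each gene, T0-centred log2 values over the 28 arrays were compared by their root mean square difference, among features with a symbol and well above background on all 16 injured time-course arrays. Closest to Mrc1 were Igsf6 (0.413), the macrophage lysozyme gene Lyz2 (0.514) and Cdk6 (0.524). Closest to Cd36 were Bst1 (0.626), Mrc1 itself (0.714) and Acp5 (0.783), the acid phosphatase of osteoclasts and macrophages. Cd86 lay nearest to Pik3ap1 (0.297), Rab32 (0.300) and Fermt3 (0.301), and Msr1 to Plbd1 (0.8294), the macrophage lectin gene Siglec1 (1.1) and Ifitm1 (1.11). Cd163 lay nearest to Lyve1 (0.680), a hyaluronan receptor of lymphatic endothelium and of some macrophages, Slc11a1 (0.830) and Angpt2 (0.842). Arg1 lay nearest to Kcne3 (0.705), Tagln (0.715) and Dysf (0.727), and Chi3l1 to Sema3a (0.318), Arvcf (0.326) and Npr2 (0.333). For Nos2 the nearest were Hira (0.413), Tcf20 (0.442) and Smpd4 (0.451), and for Marco Acer2 (0.703), Cry2 (0.718) and Vpreb3 (0.721), whose likeness is to values near background.

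The promoters of Cd36 and Mrc1 are shown because both genes rose together and fell from T1 to T8. PU.1 is a transcription factor of the myeloid lineage, and its core motif GAGGAA was searched on both strands of the 250 bases before the start of each gene (RefSeq, GRCr8). An entry was found for 6 of the 9 genes, and 4 of them held the motif (Cd36, Cd86, Marco and Mrc1), as did 23.3% of 33469 promoters. Capitals mark the motif, read on the other strand as TTCCTC. The Cd36 window is chr4:18246332-18246581 and the Mrc1 window chr17:82157475-82157724, both on the forward strand.
Cd36 promoter: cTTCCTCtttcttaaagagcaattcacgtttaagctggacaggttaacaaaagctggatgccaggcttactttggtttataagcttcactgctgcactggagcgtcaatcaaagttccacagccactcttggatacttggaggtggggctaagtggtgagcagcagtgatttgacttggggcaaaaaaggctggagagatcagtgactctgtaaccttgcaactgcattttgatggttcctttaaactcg
Mrc1 promoter: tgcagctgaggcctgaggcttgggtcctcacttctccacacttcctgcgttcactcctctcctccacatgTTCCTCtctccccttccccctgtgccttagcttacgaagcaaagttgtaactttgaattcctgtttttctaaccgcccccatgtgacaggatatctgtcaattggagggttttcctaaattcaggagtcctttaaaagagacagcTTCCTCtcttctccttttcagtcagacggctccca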

How the data were processed

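Per the labels, spinal cord RNA was copied into Cy3-labelled cRNA and hybridized to single-dye Agilent rat arrays. For every array the authors deposited scanner output (Agilent Feature Extraction), whose intensity values were background-subtracted and detrended within the array. They also deposited a value table of log2 values after quantile normalization between arrays, from which all results here were computed. Scanner outputs were joined to the column of the table with the same rank order (Spearman correlation 1), which departs from the deposited sample for 16 arrays, and they gave the flags for spots well above background, the slide, the scan session and the alternatives. Groups came from the labels. The authors' aligner or genome build does not apply to arrays, and probe positions are those of the array annotation (rn4).

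The 43379 spots of rat probes were averaged to 41012 probes and these to 35469 gene-name features, with no filter on dim probes. In R 4.3.3, limma 3.58.1 fitted 1 mean per group to all 28 arrays with eBayes (prior degrees of freedom 2.26), and 13 comparisons were tested. Features were called where the p-value, adjusted by Benjamini-Hochberg over all features of the comparison, was under 0.05. Folds come from log2 differences, or are lower bounds against probes at background, and errors after an estimate are standard errors. In simulated data for T1 against T0, 200 of 35469 features were changed. There, 51% of changes of log2 1 and 83% of log2 2 were recovered, and 5.63% of calls were false. In the measured T1 against T0, 44.1% of all features were called. These rates therefore describe a setting with far fewer changed features and do not carry over to it. Precision is limited by the 4 arrays per group.

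The 9 genes and the gene lists were chosen with earlier results of these data known. Named were the 9 genes with every probe, list genes called at all 4 times or at none or with the largest rise or fall of their list, and for each gene the 3 features closest to it. Stab2, Chit1, Retnla, Gfap and the genes at an unadjusted p under 0.05 were named after their values were seen. Stab1, Cxcl16, Cd5l, Mrc2, Clec7a, Il4r, Clec10a, Cd274, Spi1, Cd79a, Rbfox3 and Hba-a2 were not found by symbol and not analysed here, and a few genes of the lists are not reported here.

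The alternatives were scanner intensities (quantile normalized, scaled to the 75th percentile, after normexp with an offset of 50, or under their deposited samples), the undisputed arrays, dim probes left out (29308 features kept), single probes, the brightest probe, eBayes with trend and robust, the time-course arrays alone, only the compared groups, slide and session as blocks, each session, the replicate number as a block, a change of at least 2-fold, and each array left out. Leaving out outlier spots (0.307%) was added after seeing the data. Normexp used median spot signals. Amounts summed over markers are on the linear scale of the value table.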

Additional observations from a re-analysis of the deposited data

Results flagged for a closer look

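Among 63 groups of 4 values (9 genes in 7 groups), 2 held a value far from the others of its group, where chance gives about 1 in 20 groups. Msr1 measured 3.88 in T0 replicate 2, against 1.45 to 1.61 on the other T0 arrays, none of which was well above background. Msr1 measured 12.46 in T1_NPC replicate 1, against 11.01 to 11.07 on the others.

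Differences between times after injury passed limma's test for 6 pairs of gene and time span, that is, the change from T0 itself differed between the times. Arg1 at T2 was below T1 by a log2 difference of -2.05 (adjusted p = 0.00243), and at T8 by -1.86 (adjusted p = 0.000693). From T1 to T8 the log2 difference was -1.01 for Mrc1 (adjusted p = 0.0159), -1.76 for Msr1 (adjusted p = 0.0248), -2.10 for Cd36 (adjusted p = 0.00105) and 1.38 for Chi3l1 (adjusted p = 1.57e-05). The Mrc1 difference was lost without T8 replicate 4, and the Msr1 difference without T1 replicate 1, T1 replicate 4, T8 replicate 2 or T8 replicate 4.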

How the results depend on the processing

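The single-probe and 2-fold alternatives were not part of the following count, and Chi3l1 in T4 against T0 (log2 0.98) falls short of 2-fold. Under every other alternative that kept the matched samples, the 43 called differences of single genes kept their direction. In all of those, 30 of them also stayed called. The rises of Msr1, Mrc1, Cd36 and Cd86 over T0 were among these 30 at all 4 times and in both transplanted groups. With each scanner output read under its deposited sample, 0 of the 9 genes were called in T1, T2, T4, T8, T1_NPC and T2_NPC against T0, T2 and T8 against T1 and T1_NPC against T1, and called values changed sign for Arg1 in T1_NPC against T0 (-0.23), Mrc1 (0.77), Msr1 (0.98) and Cd36 (0.27) in T8 against T1, and Chi3l1 in T4 against T0 (-0.043). Among all 35469 features, limma then called 0 in T1 against T0, with 2427 at an unadjusted p under 0.05.

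The count for T2 against T1 (1) was 0 within scan session 2. For T4 against T2 it was 0, and 1 (Chi3l1) under 75th percentile scaling, normexp, dim probes left out, slide as a fixed or random block, session as a block, the time-course arrays alone, and eBayes with trend and robust, and 0 to 1 with 1 array left out. For T8 against T1 it was 5, and 2 in the undisputed arrays, 1 within session 1 and 3 to 6 with 1 array left out (3 without T8 replicate 4). For T1_NPC against T1 it was 1, and 2 under 75th percentile scaling, 3 under normexp, 0 for single probes (where every probe of a gene had to be called, and 1 of the 2 Mrc1 probes was, with an adjusted p of 0.0493), slide as a random block, only the compared groups and a change of at least 2-fold, and 0 to 2 with 1 array left out. Without T1 replicate 3 it was 1 in the other direction (Cd86 lower), it was 2 without T1_NPC replicate 1 or 4, and 0 without T1_NPC replicate 2 or 3 or another T1 array. For T2_NPC against T2 it was 0, and 2 in the undisputed arrays and 0 to 1 with 1 array left out (1 without T2_NPC replicate 4). The undisputed T2 arrays were replicates 2 and 3 alone, both of session 1. For the difference between transplantation effects the count was 0, and 1 (Cd36) under 75th percentile scaling. Under normexp, Cd163 was no longer called at T4, T8 or in T2_NPC against T0 (0.47, 0.45 and 0.49). The cause of these changes was not tested.

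Replicate numbers did not pair the arrays: same-numbered deviations correlated at -0.34 to 0.30, with 13 of 48 over 0.1. With the replicate block, the count for T1_NPC against T1 was 0, and no other count of called members changed.

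Scaling to the 75th percentile moved the median change of all features to -0.28 at T1 and -0.16 at T4 against T0. It moved the percentage of calls that were lower from 45.0% to 31.7% in T2 against T1, from 33.3% to 60.8% in T4 against T2, from 44.8% to 33.6% in T8 against T1, from 54.2% to 28.3% in T1_NPC against T1 (4225 and 7299 calls), and from 57.5% to 95.2% in the difference between transplantation effects (106 and 1889 calls). Marco and Nos2, near background, had little signal to compare.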

Other observations

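Markers of other cell types in the same cords were counted as well. Of all features, 19.1%, 17.7%, 17.5% and 18.2% were called higher than in T0 at T1, T2, T4 and T8. The shares called lower were 25.1%, 22.2%, 21% and 21.5%. All 6 T cell markers were higher than in T0 at T1, T2, T4 and T8, with median log2 changes of 2.78, 2.54, 2.62 and 2.65 (1.25, 1.51, 1.12 and 1.62 with the 2 markers below background on every T0 array at their lower bound), and all 5 fibroblast markers were higher, with medians of 4.63, 4.55, 3.18 and 3.84. Of the neutrophil markers, 4, 3, 2 and 2 of 8 were higher (50%, 37.5%, 25% and 25%), and the granule genes Mpo and Ngp were well above background on no T1 array. None of the 3 B cell markers was called by limma at any time, and only Ms4a1 at T2 had an unadjusted p under 0.05. All 5 neuron markers were lower, with medians of -1.70, -1.90, -1.85 and -1.84, and 4, 5, 3 and 5 of 5 oligodendrocyte markers were lower. Gfap was higher at all 4 times, while 3, 1, 0 and 1 of the other astrocyte markers were lower. Of 10 microglia and macrophage markers, 9, 9, 8 and 8 were higher. Of 5 endothelial markers, 2, 1, 1 and 1 were higher and 1, 0, 1 and 0 lower. From T2 on, the 20% of endothelial markers called higher was near the share of all features. Of the red blood cell markers Hbb and Alas2, only Alas2 changed, lower at T4 and T8.

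The haemoglobin gene Hbb, whose product Cd163 takes up, changed by 0.70, -0.14, -0.30 and -0.24 against T0, and none of these passed the test, while T2_NPC was above T2 by 2.11 (limma adjusted p = 0.00209).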
